A study of Homo sapiens with 12 samples.

Results

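The expression of 47 DNA replication genes was followed in MDA-MB-231, an established triple-negative breast cancer cell line. The genes encode the proteins that license origins, unwind DNA, copy it and supply its building blocks, and they were taken by gene symbol from a list of replication genes. The list was chosen with earlier results of these data known. All 47 were measured, out of 20708 genes with a probe. After a filter on dim probes, 679 of their 707 probes were used, with 1 (FEN1) to 47 (POLE) probes per gene and a median of 13, and the members were read beside the 18256 genes that passed the same filter. Each of the 47 had a probe well above background in each group. RNA was hybridized to 12 single-color exon arrays, 3 biological replicates for each of 4 groups. The cntrl cells had received control oligonucleotides for the mimic and for the siRNA, mimic145 cells overexpressed miR-145, sirnaAGO2 cells were silenced for Ago2, and sirnaAGO2+mimic145 cells had both. All groups were transfected, with 5 nM of Pre-miR-145-5p or its negative control, and 500 pM of a Dicer-substrate siRNA against Ago2 or its negative control for 72 h. The question was how the mimic changes gene expression when Ago2 is present and when it is silenced.

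DNA replication starts at origins that are licensed in G1, when the origin recognition complex (ORC), CDC6 and CDT1 load the ring of MCM2 to MCM7 onto DNA, a step that geminin (GMNN) blocks later in the cycle. In S phase the ring joins with CDC45 and the GINS complex into the active helicase, primase and polymerase alpha lay down primers, and polymerases delta and epsilon extend them with the sliding clamp PCNA, which the RFC complex loads. Many of these genes are known to be transcribed in late G1 and S phase under the E2F family of transcription factors. miR-145-5p is known as a tumor-suppressor microRNA that is low in many carcinomas. Ago2 belongs to the Argonaute proteins, with which microRNAs assemble to act on their targets. Among the human Argonaute proteins, the study describes it as the only member with nuclease activity.

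The added microRNA is shown first, since every comparison of the mimic rests on it; bases 2 to 8, its seed, are in capitals. The sequence is that of RefSeq at GRCh38.p14 chr5:149430661-149430683, plus strand, and it was taken from a reference table and not from the arrays.
hsa-miR-145-5p: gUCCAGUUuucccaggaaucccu

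The promoters of these genes were searched for E2F-type letters, a feature that the choice of genes did not use. The search covered TTTCCCGC, TTTGGCGC, TTTGCCGC and TTTCGCGC on both strands, from 250 bases before to 50 bases after each listed start of a gene (RefSeq, GRCh38.p14). Of the 47 genes, 9 had several starts. A gene was counted if any of its starts held a word, here and over all genes. None of these words contains CCAAT, which was searched separately, but words of opposite strands can share bases, as they do at MCM2 and MCM6. A promoter was found in the table for 41 of the 47 genes, and 20 of the 41 (48.8%) held an E2F-type word, as did 3.99% of all 27305 genes with a promoter and 5.76% of the 14209 that were also tested on the arrays. CCAAT stood in 26 of the 41 (63.4%), as it did in 39.7% of all genes with a promoter. The windows below show 10 bases on either side of the word, which is in capitals, on the strand of the gene. For each gene a single word is shown, also where MCM2, MCM3, MCM6 and MCM7 hold several. The windows belong to MCM2, MCM3, MCM6, POLA1, POLE2 and GMNN, whose signal was lower with the mimic, and to MCM7 and PCNA, which did not pass. The coordinates are in GRCh38.p14.
MCM2 (chr3:127598403-127598430, plus strand): gtgaaccactTTTCGCGCgaaacctggt
MCM3 (chr6:52284729-52284756, minus strand): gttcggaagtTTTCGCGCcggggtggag
MCM6 (chr2:135876516-135876543, minus strand): attggtcaggTTTGGCGCgaaatctcca
POLA1 (chrX:24693771-24693798, plus strand): tcatcacaggGCGCCAAAcgcgcgtccg
POLE2 (chr14:49688202-49688229, minus strand): tgcggcggtgGCGCCAAAtcgcaaatat
GMNN (chr6:24775323-24775350, plus strand): ctgggtcggtTTTGGCGCgctctcactt
MCM7 (chr7:100101389-100101416, minus strand): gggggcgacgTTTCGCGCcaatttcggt
PCNA (chr20:5126664-5126691, minus strand): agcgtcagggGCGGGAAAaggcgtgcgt
At POLA1, POLE2 and PCNA the word lies on the opposite strand and is printed as its reverse complement. GMNN, MCM7 and PCNA are shown at a start with such a word, and each has another start without it. These matches are descriptions of letters and not of bound sites.

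On each array 60.5% to 77.3% of spots exceeded background clearly, and 0 spots were saturated. In replicates 1, 2 and 3 the shares were 71.6%, 67.6% and 73.4% in cntrl, and 66.7%, 61.6% and 77.3% in mimic145. They were 71.0%, 69.1% and 74.1% in sirnaAGO2, and 67.9%, 60.5% and 70.8% in sirnaAGO2+mimic145. The array with the mimic thus had the lower share on each slide except that of mimic145 replicate 3, the highest of all. The part of these shares in the results was not tested. VIM and CD44, markers of the mesenchymal phenotype of this line, lay at log2 signals of 14.2 to 14.7 and 10.6 to 11.0, and the summed signal of 6 markers of blood, endothelium and fibroblasts ran from 2111 to 2846 in cntrl, 2256 to 3131 in mimic145, 2350 to 2799 in sirnaAGO2 and 2872 to 4345 in sirnaAGO2+mimic145. None of the 6 was at 0, and CD14, read by 1 probe, had log2 signals of 9.22 to 11.30 and rose with the mimic in control (0.37) and silenced cells (1.01). Their part in the results was not tested. SPARC, a further mesenchymal marker, was low at 7.39 to 8.12, with 4 of its 10 probes kept. Of 5 genes that should be low in this line, PGR, the progesterone receptor, had no probe that passed the filter, ESR1 lay at 6.68 to 7.43, ERBB2 at 7.43 to 7.77, CDH1 at 7.84 to 8.31 and EPCAM at 7.62 to 8.86, so these were not absent. EPCAM, an epithelial adhesion protein, fell with the mimic in control cells (-0.83), and SPARC rose with it in silenced cells (0.42). AGO2, the silenced gene, had log2 signals of 9.21, 9.14 and 9.01 in cntrl, 9.44, 9.36 and 9.39 in mimic145, 8.35, 8.44 and 8.42 in sirnaAGO2, and 8.27, 8.35 and 8.41 in sirnaAGO2+mimic145. All 6 silenced arrays were below all 6 others, in accord with the silencing labels. The mimic labels were not checked in this way. Each slide carried a pair of arrays with the same replicate number, one without and one with the mimic, and the mimic was always at the same position, so that an effect of slide position and an effect of the mimic cannot be told apart. Silenced and control cells of a replicate lay on different slides. Within a replicate, an effect of the slide and an effect of silencing therefore cannot be told apart, and the main fit had no slide term.

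In control cells the mimic was followed by lower signal of 5 of the 6 MCM2-7 genes, of POLA1 and PRIM1, which start DNA synthesis, and of 4 further replication genes. Of the 47 genes, 11 fell and 1 rose (limma, adjusted p under 0.05 over all 18256 genes), which is 25.5% of the genes beside 22.5% of all genes tested, with 11% of all genes lower and 11.6% higher. The share that changed was therefore near that of all genes, while the members that changed were mostly lower. The median log2 difference of the 47 genes was -0.15, and 36 of them had a lower estimate, beside a median of 0.01 over all genes tested. The genes that fell were POLE2, MCM6, POLA1, PRIM1, MCM3, MCM2, GMNN, MCM4, RFC1, MCM5 and ORC2, and the gene that rose was RNASEH2A. In these bulk samples a smaller share of cells in S phase and less RNA of these genes per cell cannot be told apart. In a separate experiment on this line, the study saw no effect of the mimic on cell cycle progression by flow cytometry. The study limited that statement to the time point it examined. That experiment is described for the mimic without the siRNA or its control, at a time shorter than the silencing of the array cells. No such measurement of the array cells is described.

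**Figure D1:**
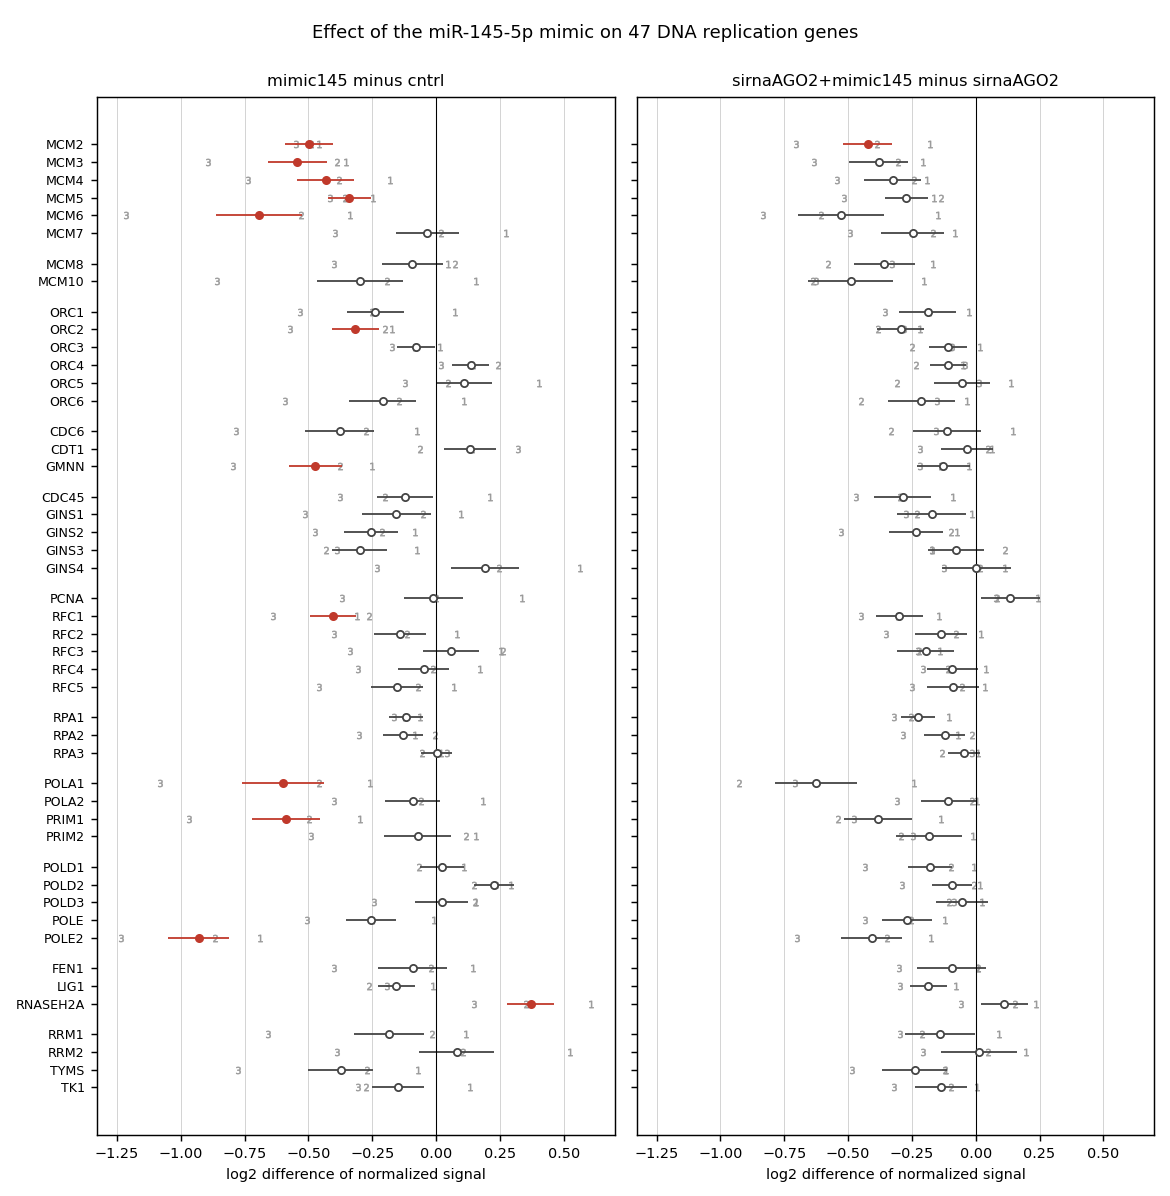
Log2 difference of normalized signal (x axis) for the 47 DNA replication genes in the order of their roles, with the mimic in control cells on the left and in silenced cells on the right. Circles are the limma estimates with their SE, filled red where the adjusted p was under 0.05, and the digits 1, 2 and 3 mark the difference within each replicate pair; 11 genes fell and 1 rose in control cells, 1 fell in silenced cells, and the digit 3 lies lowest for most genes.

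Of the 6 subunits of the MCM2-7 ring, 5 fell and MCM7 did not pass. MCM2 had log2 signals of 8.25, 8.42 and 8.25 in the cntrl arrays and 7.79, 7.93 and 7.70 in the mimic145 arrays, a difference of -0.50 (SE 0.09, adjusted p = 0.00591, limma). MCM3 had signals of 10.39, 10.54 and 10.53 without and 10.04, 10.15 and 9.64 with the mimic, a difference of -0.54 (SE 0.12, adjusted p = 0.0105, limma). In both genes every mimic145 array was below every cntrl array.

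MCM6 had the largest difference of the ring, -0.69 (SE 0.17, adjusted p = 0.0184, limma), with signals of 9.31, 9.41 and 9.67 in cntrl and 8.97, 8.88 and 8.45 in mimic145. MCM4 went from 9.35, 9.41 and 9.58 to 9.17, 9.03 and 8.84, a difference of -0.43 (SE 0.11, adjusted p = 0.0234, limma). MCM5 went from 8.84, 9.16 and 8.96 to 8.60, 8.81 and 8.54, a difference of -0.34 (SE 0.08, adjusted p = 0.0190, limma). The groups did not overlap in these 3 genes either, and the third replicate pair had the largest difference in each. MCM7, the remaining subunit, had signals of 10.46, 10.68 and 10.73 in cntrl, and 10.73 and 10.33 in replicates 1 and 3 of mimic145, with replicate 2 between them. Its groups overlapped, and its difference was -0.04 (95% interval -0.31 to 0.24). The probes within the genes mostly agreed: 13 of 14 probes of MCM2, 16 of 16 of MCM3, 15 of 17 of MCM4, 17 of 17 of MCM5 and 17 of 17 of MCM6 had a lower estimate, against 9 of 16 of MCM7. A probe was kept if it was well above background on all arrays of 1 group. Of the MCM2 probes, 13 were so in cntrl and 11 in mimic145, and such a filter can favor lower estimates with the mimic.

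**Figure D2:**
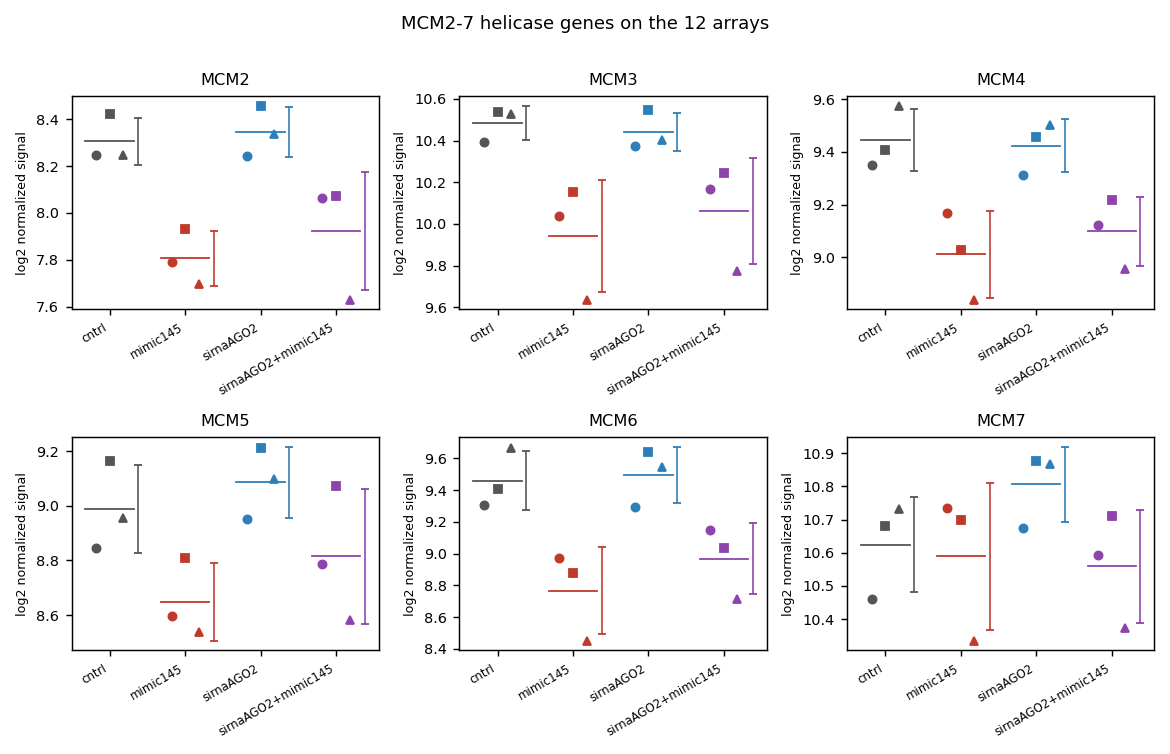
Log2 normalized signal (y axis) of the 6 MCM2-7 genes on each of the 12 arrays, by group; circles, squares and triangles are replicates 1, 2 and 3, lines are the group means and bars the SD, and the y axes do not start at 0. For MCM2, MCM3, MCM4, MCM5 and MCM6 every mimic145 array lies below every cntrl array, and for MCM7 the groups overlap.

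The largest fall of all 47 genes was that of POLE2, the second subunit of polymerase epsilon, the enzyme of the leading strand. Its signal was 9.10, 9.24 and 9.07 in cntrl and 8.40, 8.38 and 7.83 in mimic145, a difference of -0.93 (SE 0.12, adjusted p = 0.00101, limma), or 52.5% of the control level. All 17 of its probes were lower, between -1.67 and -0.35. Each was well above background on all cntrl arrays, and 15 of them on all mimic145 arrays. POLE, the catalytic subunit of the same enzyme, differed by -0.26 and did not pass (adjusted p = 0.0928, limma). The delta subunits POLD1, POLD2 and POLD3 had differences of 0.02, 0.23 and 0.02, and none of these passed.

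The polymerase alpha and primase complex makes the first primer of every strand. POLA1, its polymerase subunit, had signals of 7.81, 7.74 and 8.25 in cntrl and 7.55, 7.29 and 7.16 in mimic145, a difference of -0.60 (SE 0.16, adjusted p = 0.0274, limma). PRIM1, the catalytic primase subunit, had 8.59, 8.64 and 8.59 in cntrl and 8.30, 8.14 and 7.62 in mimic145, a difference of -0.59 (SE 0.13, adjusted p = 0.0135, limma). All 35 probes of POLA1 and all 12 of PRIM1 were lower, and in neither gene did the groups overlap. Of these probes, 34 of POLA1 and 12 of PRIM1 were well above background on all cntrl arrays, and 23 and 9 on all mimic145 arrays. The filter asked for this in 1 group only, so the count of lower probes can partly follow from it. With only probes above background on every array, the 12 genes that passed in control cells still passed. The other subunits, POLA2 and PRIM2, differed by -0.09 and -0.07 and did not pass.

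Among the licensing factors, GMNN, the inhibitor of MCM loading, had signals of 10.32, 10.44 and 10.38 in cntrl and 10.07, 10.07 and 9.58 in mimic145, a difference of -0.47 (SE 0.10, adjusted p = 0.0117, limma). CDC6, which helps load the ring, had 8.82, 9.02 and 9.17 without and 8.74, 8.74 and 8.39 with the mimic, a difference of -0.38 that did not pass (adjusted p = 0.0742, limma). CDT1, the target of geminin, had a difference of 0.13 (95% interval -0.10 to 0.36). ORC2 fell by 0.32 on the log2 scale (SE 0.09, adjusted p = 0.0392, limma), with signals of 7.87, 7.86 and 8.15 in cntrl and 7.69, 7.66 and 7.58 in mimic145. The other 5 ORC genes lay between -0.24 and 0.13 and did not pass. RFC1, the large subunit of the clamp loader, had 9.44, 9.23 and 9.68 in cntrl and 9.13, 8.97 and 9.04 in mimic145, a difference of -0.40 (SE 0.09, adjusted p = 0.0133, limma), with 24 of 24 probes lower. RFC2 to RFC5 lay between -0.15 and 0.06 and PCNA at -0.01 (95% interval -0.27 to 0.25), and none of them passed.

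RNASEH2A, the catalytic subunit of RNase H2, which removes ribonucleotides from DNA, was the member that rose. Its signal was 10.82, 11.18 and 11.04 in cntrl and 11.43, 11.53 and 11.19 in mimic145, a difference of 0.37 (SE 0.09, adjusted p = 0.0202, limma), and all 8 of its probes were higher. Its groups did not overlap, although the third pair differed by 0.15 only. FEN1 and LIG1, which process and seal Okazaki fragments, had differences of -0.09 and -0.16 and did not pass. Of the genes for deoxynucleotide supply none passed; TYMS, thymidylate synthase, came closest with -0.37 (adjusted p = 0.0662, limma), and RRM1, RRM2 and TK1 had -0.18, 0.08 and -0.15. CDC45 and the 4 GINS genes lay between -0.30 and 0.19 and the 3 subunits of replication protein A between -0.13 and 0.00, with no gene passing.

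**Figure D3:**
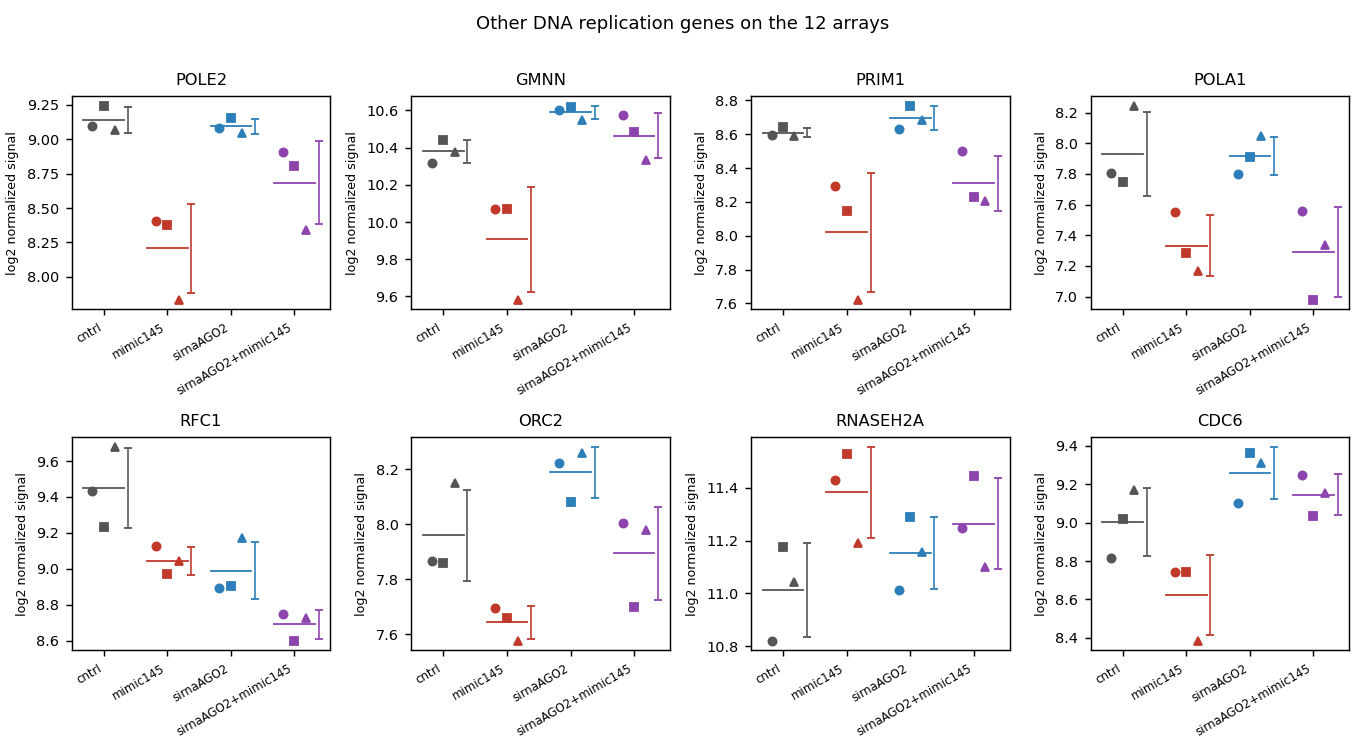
Log2 normalized signal (y axis) of 8 further DNA replication genes on each of the 12 arrays, by group; circles, squares and triangles are replicates 1, 2 and 3, lines are the group means and bars the SD, and the y axes do not start at 0. POLE2, GMNN, PRIM1, POLA1, RFC1 and ORC2 are lower and RNASEH2A is higher in mimic145 than in cntrl, CDC6 did not pass there, and RFC1 is also lower in sirnaAGO2 than in cntrl.

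**Figure D4:**
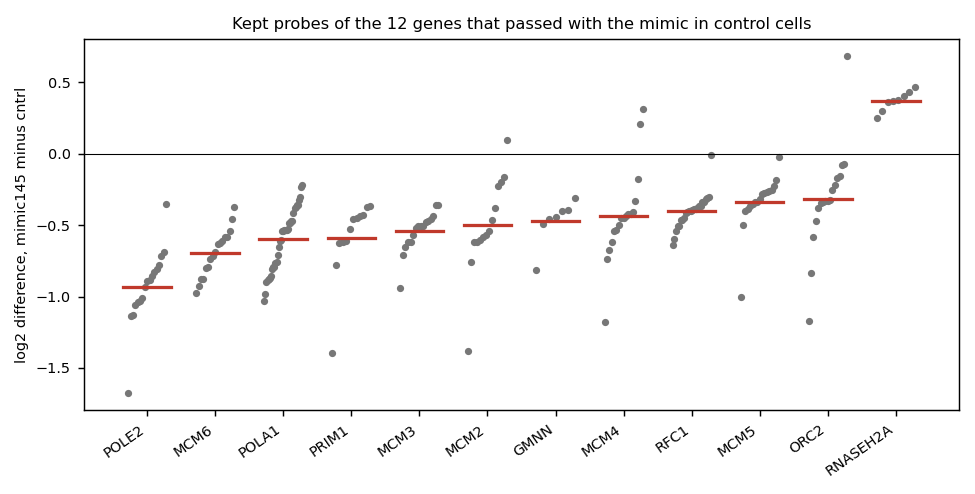
Log2 difference of mimic145 minus cntrl (y axis) for every probe used of the 12 genes that passed in that comparison; grey points are probes, sorted within a gene, and red lines are the gene estimates. The probes of POLE2 lie between -1.67 and -0.35, and those of RNASEH2A all lie above 0.

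The number of genes that passed in control cells depended on single replicates, and the median on the third. The median difference of the 47 genes was 0.07 in the first pair, -0.11 in the second and -0.40 in the third, with 19, 36 and 41 genes lower, while all genes tested had medians of -0.02, 0.00 and 0.08. Without the mimic145 array of replicate 3, 6 genes passed, without the cntrl array of replicate 3, 4, and without replicate 1, 2 or 3 as a whole, 5, 1 and 4. The shares of all genes tested that passed were 17% and 15.6% without these arrays, and 6.63%, 12.7% and 9.32% without these replicates. The median of the 47 genes was -0.02 without replicate 3, beside -0.01 over all genes, and -0.26 and -0.18 without replicates 1 and 2. POLE2 passed under each of these, and MCM2 under each except the fit without replicate 2. Among the settings that left out 1 array in turn, POLE2, MCM2 and MCM3 passed in all 12 and ORC2 in 4. The 11 genes that fell had an estimate below 0 without each of the 3 replicates, and without replicate 3 they lay between -0.78 and -0.19. The MCM2-7 genes had medians of -0.29, -0.38 and -0.64 in the 3 pairs, with 5, 5 and 6 of the 6 genes lower; MCM7 was higher in the first and second pair. On the mimic145 array of replicate 3, 7 genes that mark proliferating cells in general had a median of -0.32 relative to their mean over all arrays, whereas it was 0.12 and 0.09 on the other mimic145 arrays and -0.28, -0.23 and -0.03 on the cntrl arrays. Their part in the result was not tested.

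In silenced cells the mimic was followed by lower estimates for nearly the whole set, of which 1 gene passed. MCM2 fell by 0.42 on the log2 scale (SE 0.09, adjusted p = 0.0360, limma), from 8.24, 8.46 and 8.34 in sirnaAGO2 to 8.06, 8.07 and 7.63 in sirnaAGO2+mimic145, and these groups did not overlap. That is 2.13% of the 47 genes, beside 7.28% of all genes tested, with 3.03% lower and 4.25% higher. Of the 47 estimates, 43 were lower, with a median of -0.18 beside 0.02 over all genes, and 28 genes (59.6%) were lower in all 3 pairs, as were 23.4% of all genes tested. The arrays of 17 genes did not overlap between the groups, all 17 lower, which is 36.2% of the members beside 24.1% of all genes in either direction and 10.2% lower. In control cells 16 members did not overlap, 15 of them lower, beside 28.4% of all genes in either direction and 13.5% lower. Leaving out 1 array in turn, MCM2 kept its call in 4 of 12 settings, with differences between -0.52 and -0.31. The call was lost when each probe used had to be above background on every array, with gene medians over probes (-0.19), without the replicate block and with only the arrays compared. The median of the 47 genes was -0.12 without replicate 3. In the 3 pairs it was -0.03, -0.18 and -0.30, with 29, 40 and 45 genes lower. The probe filter can favor lower estimates here too. Of the POLA1 probes, 35 were well above background on all sirnaAGO2 arrays and 23 on all sirnaAGO2+mimic145 arrays. With only probes above background on every array, the median of the 47 genes was -0.14, beside 0.06 over all genes.

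The 11 genes that fell in control cells can be read again in silenced cells, whose arrays do not enter the differences of the first comparison. They do enter its estimate of the spread and the replicate block, and with only the arrays of control cells fitted, 2 genes passed in place of 12. All 11 were lower there, each in all 3 pairs, with a median of -0.38 beside -0.50 in control cells; 10 of them had an unadjusted p under 0.05 (limma), and GMNN was the exception. Of the 2003 genes of any kind that fell in control cells, 90.8% had a lower estimate in silenced cells, 75.2% were lower in all 3 pairs, and their median was -0.23 beside -0.48. In silenced cells 1119 of these 2003 genes had an unadjusted p under 0.05 (limma). After adjustment 22.2% of the 2003 genes passed there as lower, beside 9.09% of the 11 members. POLA1 differed by -0.63 in silenced cells (adjusted p = 0.0507, limma), with signals of 7.80, 7.91 and 8.05 without and 7.56, 6.98 and 7.34 with the mimic. POLE2 had signals of 9.08, 9.15 and 9.04 without and 8.91, 8.81 and 8.34 with the mimic, a difference of -0.41 (adjusted p = 0.0691, limma). MCM6 differed by -0.53, PRIM1 and MCM3 by -0.38 each, MCM4 by -0.33, RFC1 by -0.30, ORC2 by -0.29 and MCM5 by -0.27. MCM10, which activates the helicase, differed by -0.49 in silenced and -0.30 in control cells and passed in neither. RNASEH2A differed by 0.11 in silenced cells and did not pass.

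The test of the difference between these effects of the mimic called 0 of the 47 genes (limma, interaction term), and 0.011% of all genes tested, 0.00548% in each direction. An unadjusted p under 0.05 (limma) was found for 3061 of all 18256 genes tested and for 4 members. Among the members POLE2 had the smallest p, with a difference of 0.52 (SE 0.17, adjusted p = 0.191, limma), the fall in silenced cells being the smaller. It was nearly the same in the 3 replicates (0.52, 0.52 and 0.53), and all 17 probes shared its direction. POLD2, ORC4 and GMNN followed with -0.32, -0.24 and 0.35. For the median of the 47 genes the difference was -0.01. For MCM2 it was 0.08 and for MCM6 0.17, neither of which passed. A gene that passed in control cells and missed the threshold in silenced cells was therefore not shown to respond differently.

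Silencing of Ago2 without the mimic changed 1 of the 47 genes, 2.13% beside 2.57% of all genes tested, with 1.69% lower and 0.887% higher. RFC1 fell by 0.46 on the log2 scale (SE 0.09, adjusted p = 0.0392, limma), from 9.44, 9.23 and 9.68 in cntrl to 8.89, 8.91 and 9.17 in sirnaAGO2. The groups did not overlap and all 24 probes were lower, but the call held in only 2 of the 12 settings that left out an array, with differences between -0.53 and -0.38. It was also lost with the slide as a random block, without the replicate block, with gene medians over probes and with only the arrays compared. With the slide as a random block in place of the replicate block, 35 of all genes tested passed, beside 470 in the main fit. Most of the other members had small positive estimates: 38 of 47 were higher, with a median of 0.14 beside -0.03 over all genes, and 30 genes (63.8%) were higher in all 3 pairs, as were 20.7% of all genes. With only probes above background on every array, the median of the 47 genes was 0.12, beside -0.03 over all genes. The arrays of 13 genes did not overlap, 11 higher and 2 lower, which is 27.7% beside 19.1% of all genes, with 8.48% higher and 10.6% lower. The 7 general proliferation markers were also higher in estimate, with a median of 0.21 and none passing (limma). An unadjusted p under 0.05 (limma) was found for 3 of them, and for 3466 of all 18256 genes tested. The summed signal of the 7 markers ran from 11493 to 12782 in cntrl and 13336 to 14468 in sirnaAGO2. Their part in the result was not tested. RPA2, which binds single-stranded DNA at the fork, had nearly the same difference in each pair (0.30, 0.29 and 0.31) and an adjusted p of 0.0851 (limma), with signals of 9.42, 9.42 and 9.32 in cntrl and 9.72, 9.71 and 9.63 in sirnaAGO2. CDC45 had a difference of 0.33 and did not pass (adjusted p = 0.152, limma). MCM2 to MCM6 lay between -0.04 and 0.10. The comparison shares its cntrl arrays with that of the mimic in control cells, so the values of these comparisons are not independent.

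In cells with the mimic, silencing raised GMNN. Its signal was 10.07, 10.07 and 9.58 in mimic145 and 10.58, 10.48 and 10.33 in sirnaAGO2+mimic145, a difference of 0.56 (SE 0.10, adjusted p = 0.0243, limma), and all 7 probes were higher. It was the only one of the 47 genes that passed, 2.13% beside 4.31% of all genes tested, with 1.86% higher and 2.44% lower. In cells without the mimic, GMNN stood 0.21 higher in sirnaAGO2 than in cntrl and did not pass (adjusted p = 0.309, limma). The call of GMNN was lost without the mimic145 array of replicate 1 or any 1 sirnaAGO2+mimic145 array, with differences between 0.43 and 0.63 over the 12 settings. It was also lost with the slide as a random block, without the replicate block, with gene medians over probes and with only the arrays compared. With the slide as a random block in place of the replicate block, 90 of all genes tested passed, beside 786 in the main fit. CDC6 had a difference of 0.52 (adjusted p = 0.0625, limma), from 8.74, 8.74 and 8.39 to 9.25, 9.03 and 9.16, and its groups did not overlap. POLE2 had 0.48 (adjusted p = 0.0583, limma), RPA2 0.31 and RFC1 -0.35, none of which passed. RFC1 had its lowest signals in the cells with both treatments, at 8.75, 8.60 and 8.73. Of the 47 genes, 36 had a higher estimate, with a median of 0.12 beside 0.00 over all genes. The arrays of 7 genes did not overlap, 4 higher and 3 lower, which is 14.9% beside 14.8% of all genes, with 6.22% higher and 8.57% lower. The share was thus near that of all genes.

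**Figure D5:**
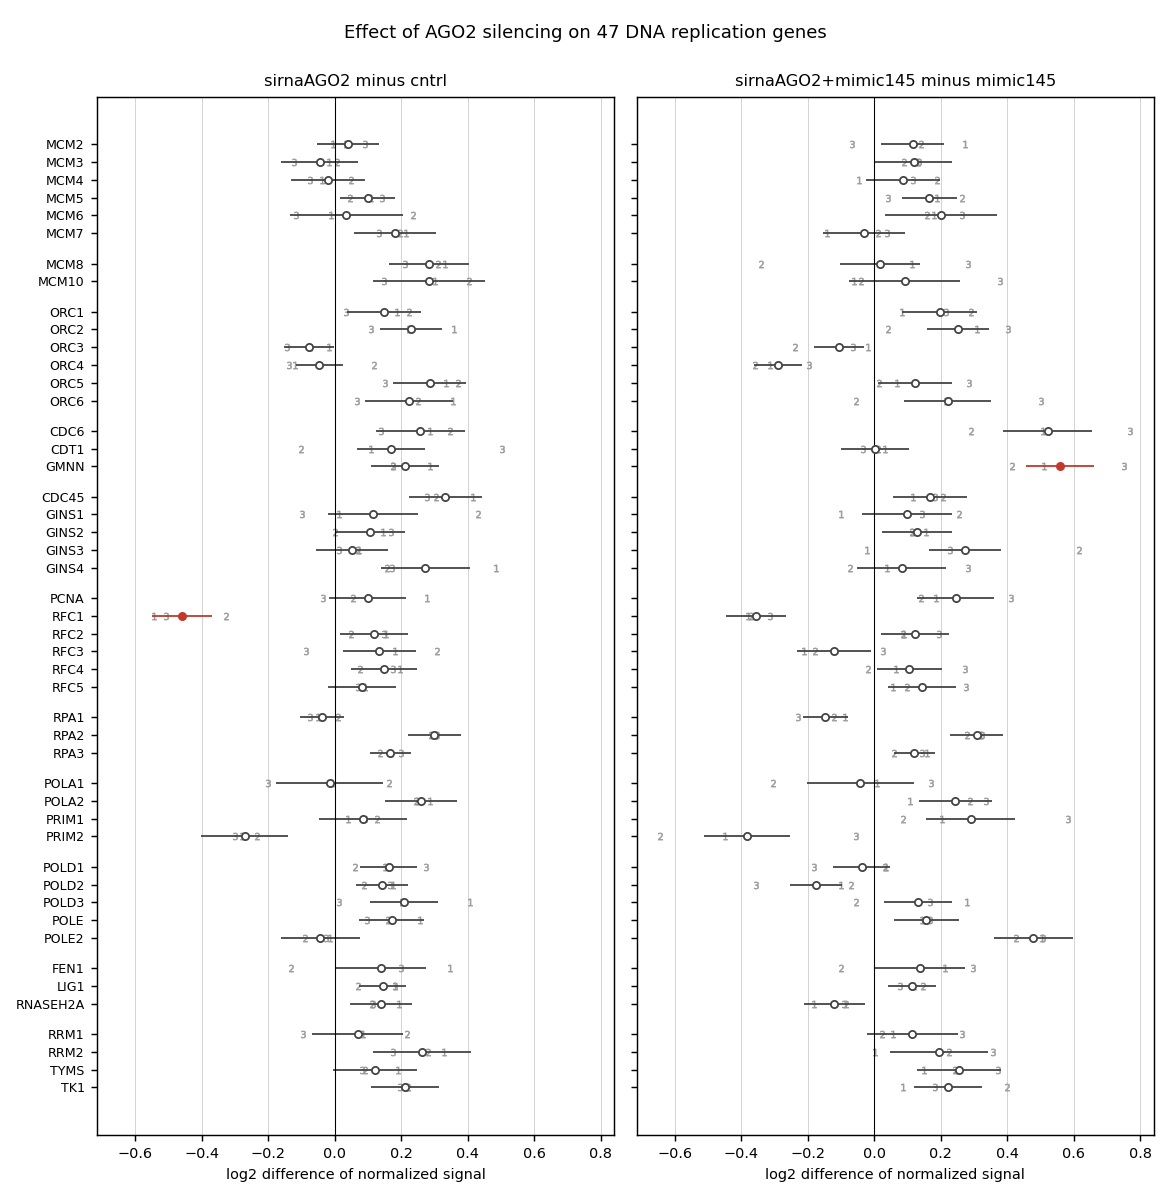
Log2 difference of normalized signal (x axis) for the 47 DNA replication genes after silencing of Ago2, without the mimic on the left and with it on the right. Circles are the limma estimates with their SE, filled red where the adjusted p was under 0.05, and digits mark the replicate pairs; RFC1 passed on the left and GMNN on the right, and most other estimates are above 0.

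Genes that work beside these were counted against the 22.5% of all genes that passed in control cells (11% lower, 11.6% higher), with no test between lists. Of 28 other replisome and origin factors 1 fell and 1 rose with the mimic. TOPBP1, which helps activate the helicase, differed by -0.43, and RNASEH2C, a partner of RNASEH2A, by 0.24. That is 7.14% of the list, below the share of all genes. Of 9 other genes of nucleotide supply 3 fell and 2 rose. RRM2B, the ribonucleotide reductase subunit induced by p53, differed by -0.82 and DUT, which keeps uracil out of DNA, by -0.41, whereas CTPS1, which makes CTP, differed by 0.43 and DCTPP1, which breaks down dCTP, by 0.40. Of 10 chromatin factors at the fork 4 fell and none rose. SUPT16H, a subunit of the histone chaperone FACT, differed by -0.72, ASF1B by -0.52, UHRF1 by -0.37 and NASP by -0.46. Of these, SUPT16H (-0.54) and UHRF1 (-0.36) also fell with the mimic in silenced cells.

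Of 7 S phase cyclins and partners 2 fell in control cells, CCNE1 (-0.33), the cyclin of entry into S phase, and CDC25A (-0.56), a phosphatase that activates CDK2. CCNE1 fell in silenced cells too, by 0.42 on the log2 scale. CCNA2, the cyclin of S phase and G2, was 0.60 higher in sirnaAGO2+mimic145 than in mimic145 and passed there. Of the 7 general proliferation markers 1, AURKA, rose (0.37) in control cells and none fell, and their median was 0.10. Of 13 genes of the E2F, DP and RB family 3 rose (E2F5 by 0.57, TFDP2 by 0.42 and E2F3 by 0.32) and E2F7 fell by 0.24 on the log2 scale. E2F5 and E2F3 were also higher with silencing alone (0.78 and 0.40). Of 8 checkpoint genes none passed in control cells (limma), with 3 at an unadjusted p under 0.05, as were 6463 of all 18256 genes tested.

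Among the genes with a promoter in the table, an E2F-type word stood in 6 of the 9 that fell with the mimic in control cells (66.7%) and in 14 of the 31 that did not pass (45.2%). CCAAT stood in 7 of the 9 and in 18 of the 31. GMNN counts among the 6 through 1 of its starts, and another of its starts held no such word. MCM7, POLE and PCNA, each with a promoter that holds such a word, did not pass in control cells. PRIM1, RFC1 and ORC2 fell without such a word in this window. No test was made of these shares.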

How the data were processed

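The authors extracted the arrays with Agilent Feature Extraction 10.7.3.1 and deposited the processed signal of each spot, a background-corrected intensity without normalization between arrays. The deposited log2 table, quantile normalized by the authors, was an alternative. Outlier spots (304 to 462 per array) were left out, intensities under 1 set to 1, quantile normalized and log2 transformed. Probes took genes from their transcript accession, were kept if well above background on all 3 arrays of a group, and were averaged. limma 3.58.1 (R 4.3.3) was fitted to all 12 arrays with group and replicate number, with Benjamini-Hochberg adjustment over 18256 genes and a threshold of 0.05. Same-numbered arrays deviated together (correlations 0.139 to 0.577 over 18 pairs), as in the paired test of the methods. The median SE of a difference was 0.109 for members and 0.099 for all genes. The number of arrays limits the precision. All 47 members may be named, and at most 4 genes of another list, those with the smallest p; AGO2 and the markers of the line are named as checks. The members and lists were chosen with earlier results of these data known. The fit was tested on simulated data. Promoters and microRNAs come from RefSeq; protein and 3′ UTR sequences were not used here.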

Additional observations from a re-analysis of the deposited data

How the results depend on the processing

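No difference of the 47 genes that passed changed its direction in the alternatives run; the genes of the other lists were not run under them. The count of 12 genes for the mimic in control cells was 8 to 15 under the other scaling, background correction, source, filter and model settings, apart from 2 when only the arrays of the groups compared were fitted and 0 by the methods' paired t-test after adjustment (4 unadjusted). Leaving out replicates or single arrays gave 1 to 13. The share of all genes that passed moved as well. It was 10.9% to 30.2% under the settings with 8 to 15 genes, and 9.93% with only the arrays compared. By the paired t-test it was 0% after adjustment and 21.2% unadjusted, and with replicates or arrays left out 6.63% to 24.2%. For the mimic in silenced cells the count of 1 became 3 with 75th percentile scaling and with the authors' log2 table, 8 with normexp, 2 with the slide as a random block or an intensity trend, and 0 with the strict probe filter (above background on every array), gene medians over probes, only the arrays compared, no replicate block and the adjusted t-test (2 unadjusted), and 0 to 4 with replicates or arrays left out. For silencing without the mimic it became 2 with normexp and with the strict probe filter, and 0 with gene medians over probes, the slide block, no replicate block, only the arrays compared and the adjusted t-test (14 unadjusted), and 0 to 1 with replicates or arrays left out. For silencing with the mimic it became 5 with normexp, 2 with the authors' table, 6 with the strict filter or the intensity trend, and 0 with no replicate block, the slide block, only the arrays compared and the adjusted t-test (11 unadjusted), and 0 to 2 with replicates or arrays left out; by the median over probes the 1 gene was POLE2, not GMNN. For the difference of the mimic effects it was 0 in each alternative except the unadjusted t-test (2), and the fit of only the groups compared is the same as that of all arrays. Without the replicate block 8 genes passed for the mimic in control cells. For the mimic in silenced cells, 12% of all genes passed with normexp and 12.8% with the strict filter. Without the replicate block 0.427% of them passed there, and with only the arrays compared 0%. For silencing without the mimic the share was 4.53% with normexp, 6.81% with the strict filter and 17.4% by the unadjusted t-test. For silencing with the mimic it was 6.48%, 8.48% and 12.1% in these settings. The 75th percentile scaling moved the median of all genes to 0.11 for the mimic in silenced cells, where the 47 genes had -0.13. The median of the 47 genes for silencing became 0.10 with normexp and 0.07 to 0.21 with arrays left out, and with the mimic 0.03 to 0.20. The causes were not tested. With 3 arrays in a group, differences near the SE of 0.109 were not detectable.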
